A study of Mus musculus with 9 samples.

Results

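The genes described here code for tropomyosins, tropomodulins and leiomodins, proteins that lie along actin filaments or sit at their slow-growing ends. The members are Tpm1, Tpm2, Tpm3, Tpm4, Tmod1, Tmod3, Tmod4, Lmod2 and Lmod3, 9 genes of the 19938 that the arrays measure with a probe set naming 1 gene. A member was taken where the platform's gene symbol of a probe set was exactly its symbol, and of several such probe sets the brightest on average was used. All 9 were among the 16582 genes that passed the filter on low values and were tested.

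Expression was measured in primary skeletal muscle myoblasts as they formed myotubes, from Balb/c mice of wild-type genotype. The groups are cycling myoblasts at day 0, myotubes at day 2 and myotubes at day 5 in differentiating medium, with 3 Affymetrix arrays each. Strain, genotype and tissue of origin were the same in all groups, and no source used here gives the age or number of the animals. The differentiating medium is named in the sample titles only, since the growth protocol attached to all samples describes a serum and bFGF medium, and no label says whether replicates were separate cultures. Cells were profiled in bulk, so fewer cells of a type and less RNA per cell cannot be told apart.

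Tropomyosins are coiled-coil proteins that run head to tail along actin filaments. In striated muscle they work with troponin to control the access of myosin, and in other cells they mark and stabilise sets of cytoskeletal filaments. Each tropomyosin gene makes several proteins through alternative promoters and splicing, among them muscle and cytoskeletal forms, and 1 value per gene does not separate these. Tropomodulins cap the pointed end of the filament, where growth is slow, and bind tropomyosin there. Leiomodins are relatives of the tropomodulins that nucleate actin and act at the same end in muscle, where they help set the length of the thin filament.

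Values are log2 expression values from RMA. The series describes RMA as applied to replicate sets separately, and array medians lie closer together within a time point than between time points. Every change is therefore given as 2 values, first as deposited and then on a common scale made by quantile normalization of all 9 arrays together. The 2 scales differ most at day 5. Over all 16582 genes the median log2 fold change, written log2FC, at day 2 against cycling myoblasts was -0.01 from the deposited values and 0.09 on the common scale. It was -0.37 and 0.17 at day 5 against cycling myoblasts, and -0.40 and 0.05 at day 5 against day 2. Within a time point 47.9% to 60.2% of probe sets had the same value on all 3 arrays. limma's SEs and p-values are therefore too small, and they reflect only how far these arrays lie apart, a spread that may be technical. For that reason a change is called here only if limma's adjusted p was under 0.05 and the change was at least 2-fold in the same direction on both scales. An exact permutation test of 3 arrays against 3 cannot go below p = 0.1. With arrays of a time point this alike, values that do not overlap between time points say little by themselves. The share of all genes without such overlap was not counted, so nothing is read from it below.

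The stretches before the transcription starts of 5 members are shown because these members span the range of responses: Tpm2, Lmod2 and Tmod1 were higher by day 2, Tmod4 reached 2-fold by day 5 alone, and Tpm4 fell at each step. RefSeq (GRCm38.p6) held windows for 7 of the 9 members, 8 windows in all, and the 250 bases before the start are printed 5′ to 3′ on the gene's strand. The starts used for Lmod2 and Tpm4 are the 5′ end of the RefSeq gene, and those used for Tpm2, Tmod1, Tmod4 and Tpm1 are not. Which starts the measured transcripts use was not tested, so a window need not be the promoter of the transcript measured. Capitals mark E-boxes, CANNTG, the sequence that MyoD and other basic helix-loop-helix factors bind.
Tpm2, chr4:43523555-43523804, minus strand: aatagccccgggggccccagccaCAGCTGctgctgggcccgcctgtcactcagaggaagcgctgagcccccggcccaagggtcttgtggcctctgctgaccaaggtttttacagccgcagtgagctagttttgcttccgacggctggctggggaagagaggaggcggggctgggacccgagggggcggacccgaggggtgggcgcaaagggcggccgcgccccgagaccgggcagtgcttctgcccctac
Lmod2, chr6:24597521-24597770, plus strand: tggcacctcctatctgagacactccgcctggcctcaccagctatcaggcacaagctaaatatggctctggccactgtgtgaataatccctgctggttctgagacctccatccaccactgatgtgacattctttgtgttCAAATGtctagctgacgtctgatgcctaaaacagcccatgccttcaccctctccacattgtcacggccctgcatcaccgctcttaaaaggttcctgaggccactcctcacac
Tmod1, chr4:46038972-46039221, plus strand: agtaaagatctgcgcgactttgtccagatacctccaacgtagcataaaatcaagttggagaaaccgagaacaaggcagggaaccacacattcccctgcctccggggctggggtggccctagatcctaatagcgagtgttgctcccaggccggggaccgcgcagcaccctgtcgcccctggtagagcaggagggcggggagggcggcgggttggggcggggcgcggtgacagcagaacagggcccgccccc
Tmod4, chr3:95124264-95124513, plus strand: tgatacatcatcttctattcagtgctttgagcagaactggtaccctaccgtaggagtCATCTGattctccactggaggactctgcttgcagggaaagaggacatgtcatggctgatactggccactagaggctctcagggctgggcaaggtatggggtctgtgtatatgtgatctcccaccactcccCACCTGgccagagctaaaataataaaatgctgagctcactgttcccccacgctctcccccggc
Tpm4, chr8:72135038-72135287, plus strand: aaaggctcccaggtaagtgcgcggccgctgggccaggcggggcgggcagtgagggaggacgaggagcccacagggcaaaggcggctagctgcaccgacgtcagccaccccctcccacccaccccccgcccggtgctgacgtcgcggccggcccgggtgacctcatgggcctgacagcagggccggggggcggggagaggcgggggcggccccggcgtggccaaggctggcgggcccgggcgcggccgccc
Tpm2 has 1 E-box, of the form CAGCTG, 227 bases before the start, Lmod2 has 1, CAAATG, at 112 bases, and Tmod4 has CATCTG at 193 bases and CACCTG at 63. No E-box lies in the windows of Tmod1 and Tpm4. Among windows not printed, that of Tpm1 holds CAACTG, and the 2 of Tpm3, at separate starts, hold CAGCTG and CAACTG. Searched on both strands in all 32851 windows of the same length, CANNTG was in 66.2% and the narrower CAGCTG, which CANNTG includes, in 13%. MEF2 sites (in 2.92% of all windows), CArG boxes (1.47%) and TATAAA (12.4%) were in 0 of the 8 member windows. A match is a match of letters in this window and says nothing of binding.

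At day 2, 4 of the 9 members were higher than in cycling myoblasts and 3 were lower, where 6.04% of all genes tested were called higher, 8.41% lower and 14.4% in either direction. Tmod1, Lmod3, Lmod2 and Tpm2 rose, and Tmod3, Tpm4 and Tpm3 fell. Tpm3 is counted here from its highest probe set. With the mean of its 4 probe sets it was called at neither time against cycling myoblasts. At day 5 against cycling myoblasts 5 were higher and 3 lower, with Tmod4 added to the rises, against 4.44% and 12.3% of all genes (16.7% in either direction). Between day 2 and day 5, 1 member was higher (Tmod4) and 1 lower (Tpm4), against 0.766% and 3.67% of all genes (4.44% in either direction). By limma's adjusted p alone, at any size and from the deposited values, 6 members were higher and 3 lower at day 2, with 45.8% and 47.5% of all genes (93.3% in all). The counts were again 6 and 3 at day 5 against cycling myoblasts, with 29.7% and 65.5% of all genes (95.2% in all). At day 5 against day 2 they were 1 and 8, with 16.2% and 77.8% of all genes (94% in all). Since nearly every gene passed on p alone, the counts at 2-fold are used below. The median log2FC of the 9 was 0.87 and 1.05 at day 2 and 1.47 and 2.07 at day 5 against cycling myoblasts, the middle of changes in opposite directions.

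**Figure D1:**
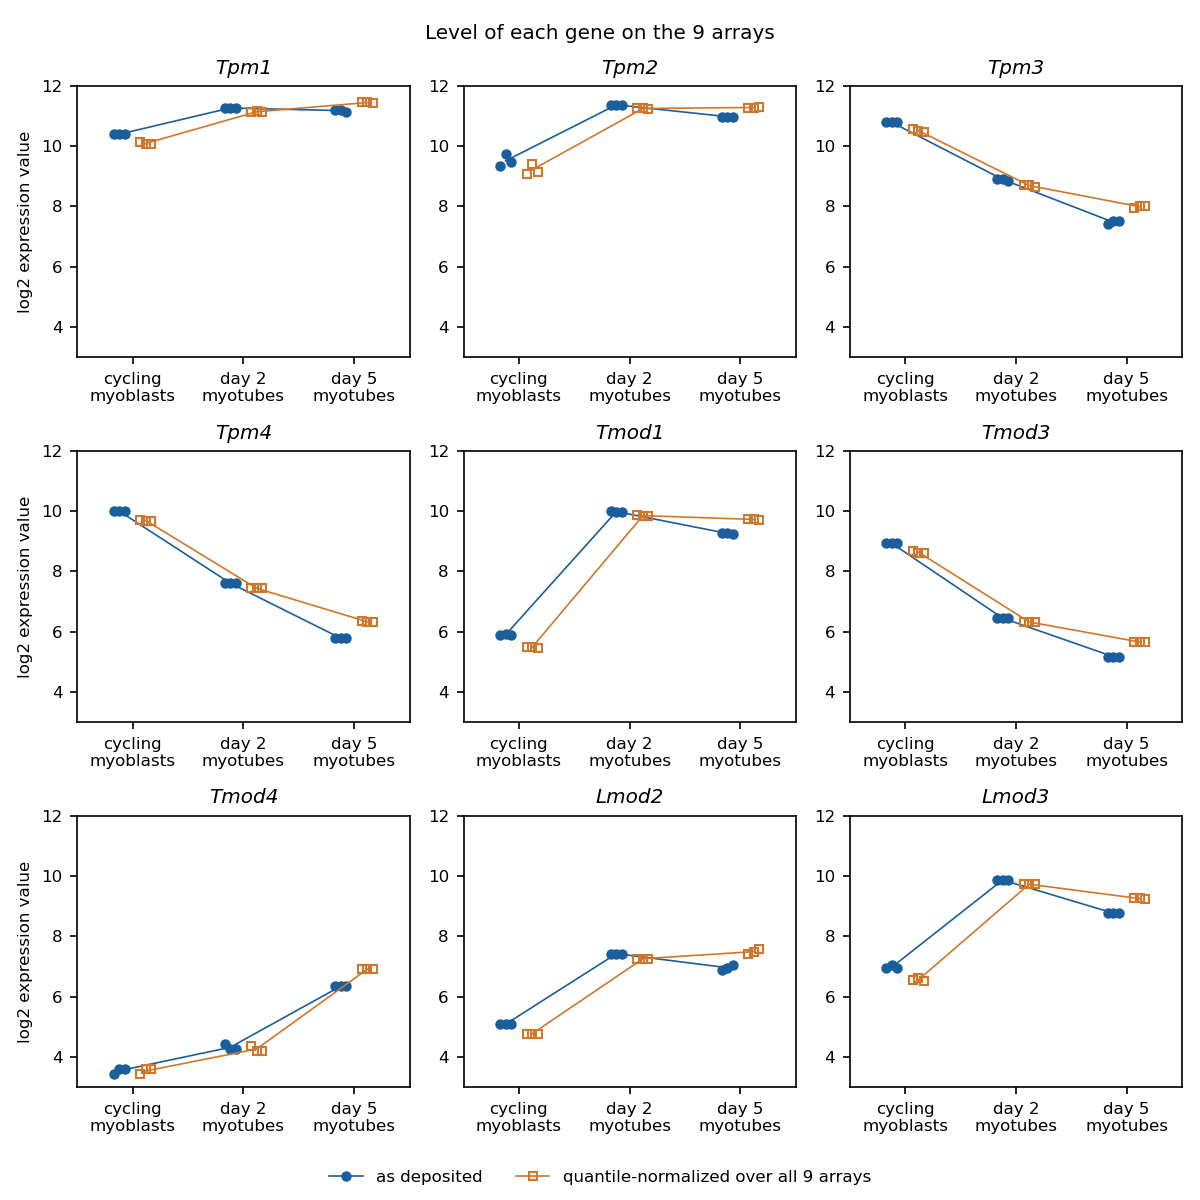
Log2 expression value (vertical axis) of each of the 9 genes on every array at the 3 time points, as deposited (filled circles) and after quantile normalization over all 9 arrays (open squares), with lines through the means of 3 arrays. Tpm3, Tpm4 and Tmod3 step down at both times, Tmod1, Lmod2, Lmod3, Tpm1 and Tpm2 are higher at day 2 and stay above cycling myoblasts, and the main step of Tmod4 comes between day 2 and day 5.

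Tpm1 and Tpm2 are the genes of the main striated muscle tropomyosins, alpha and beta. Tpm2 had 9.34, 9.73 and 9.47 in cycling myoblasts, 11.38 on each of the 3 arrays at day 2 and 10.98 on each at day 5. All arrays of myotubes lay above all arrays of myoblasts, and the 3 myoblast arrays were the most spread of any member at any time (SD 0.199). Tpm2 rose with a log2FC of 1.86 ± 0.091 (SE) as deposited and 2.04 on the common scale at day 2 (limma adjusted p = 8.15e-07), and 1.47 ± 0.091 and 2.07 at day 5 (limma adjusted p = 3.02e-06).

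Tpm1 had 10.40 on all 3 myoblast arrays, 11.27 on all 3 at day 2, and 11.20, 11.20 and 11.15 at day 5. The change against cycling myoblasts was short of 2-fold as deposited. Its log2FC against cycling myoblasts at day 2 was 0.87 ± 0.014 from the deposited values and 1.05 on the common scale (limma adjusted p = 8.25e-10), and 0.78 ± 0.014 and 1.36 at day 5 (limma adjusted p = 1.35e-09). Tpm1 therefore reached 2-fold on the common scale alone and is not counted among the rises. Set against the median of all genes, its change at day 5 was 1.16 from the deposited values and 1.18 on the common scale.

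Tpm4, which makes mainly cytoskeletal tropomyosin, fell the most of the 9 by day 5. It had 9.995, 10.003 and 10.003 in cycling myoblasts, 7.61 on all 3 arrays at day 2 and 5.78 on all 3 at day 5. Each time point lay below the one before it on every array. The log2FC was -2.39 ± 0.0021 and -2.25 at day 2 (limma adjusted p = 1.43e-17), and -4.22 ± 0.0021 and -3.36 at day 5 (limma adjusted p = 4.13e-19), an 18.6-fold and a 10.3-fold lower level. The day 5 value of Tpm4 was shared with 22 to 26 other probe sets on the same array. Shared values were common, since 54.8% to 68.4% of all probe sets had the value of another probe set on the same array. The same holds for the shared values given below for Tmod4 and Tmod3. A further probe set, 10448202, names Tpm4 together with the pseudogene Gm7809 and so was not used to stand for the gene. In cycling myoblasts it averaged 10.88 ± 0.027, with 8.54 ± 0 in day 2 and 5.85 ± 0.031 in day 5 myotubes (SD, n = 3 each).

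Tpm3 makes the slow muscle tropomyosin and several cytoskeletal forms. Its highest probe set, 10416940, had 10.79, 10.80 and 10.79 in cycling myoblasts, 8.92, 8.92 and 8.85 at day 2, and 7.41, 7.52 and 7.50 at day 5. By this probe set Tpm3 fell, with a log2FC of -1.89 ± 0.034 and -1.82 at day 2 (limma adjusted p = 2.12e-09) and -3.31 ± 0.034 and -2.53 at day 5 (limma adjusted p = 6.32e-11). That direction did not hold for every probe set of the gene, and with the mean of its 4 probe sets Tpm3 was called at neither time against cycling myoblasts (log2FC -0.68 at day 2 and -1.48 at day 5 as deposited).

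Of the 4 probe sets naming Tpm3 alone, probe set 10493633 went the other way. It had 7.62 on all 3 myoblast arrays, 7.92, 7.92 and 7.86 at day 2, and 7.93 on all 3 arrays at day 5. The arrays of myotubes at both times lay above those of myoblasts. Its log2FC against cycling myoblasts was 0.28 and 0.50 at day 2 (limma adjusted p = 1.97e-06, over 18090 probe sets tested), and 0.31 and 1.19 at day 5 (limma adjusted p = 1.06e-06), reaching 2-fold at day 5 on the common scale alone. The platform annotation gives it 3 transcript accessions, all among the 13 of the highest probe set and 0 among those of the remaining 2. Those 2 were lower, 10549979 with 7.55 on each myoblast array, 6.79 on each of day 2 and 5.97 on each of day 5, and 10560000 with 7.02, 6.68 and 5.70, both short of 2-fold on the common scale. RefSeq lists 3 pseudogenes named after Tpm3, so what the Tpm3 probe sets share with near copies of the gene is uncertain and was not tested.

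**Figure D2:**
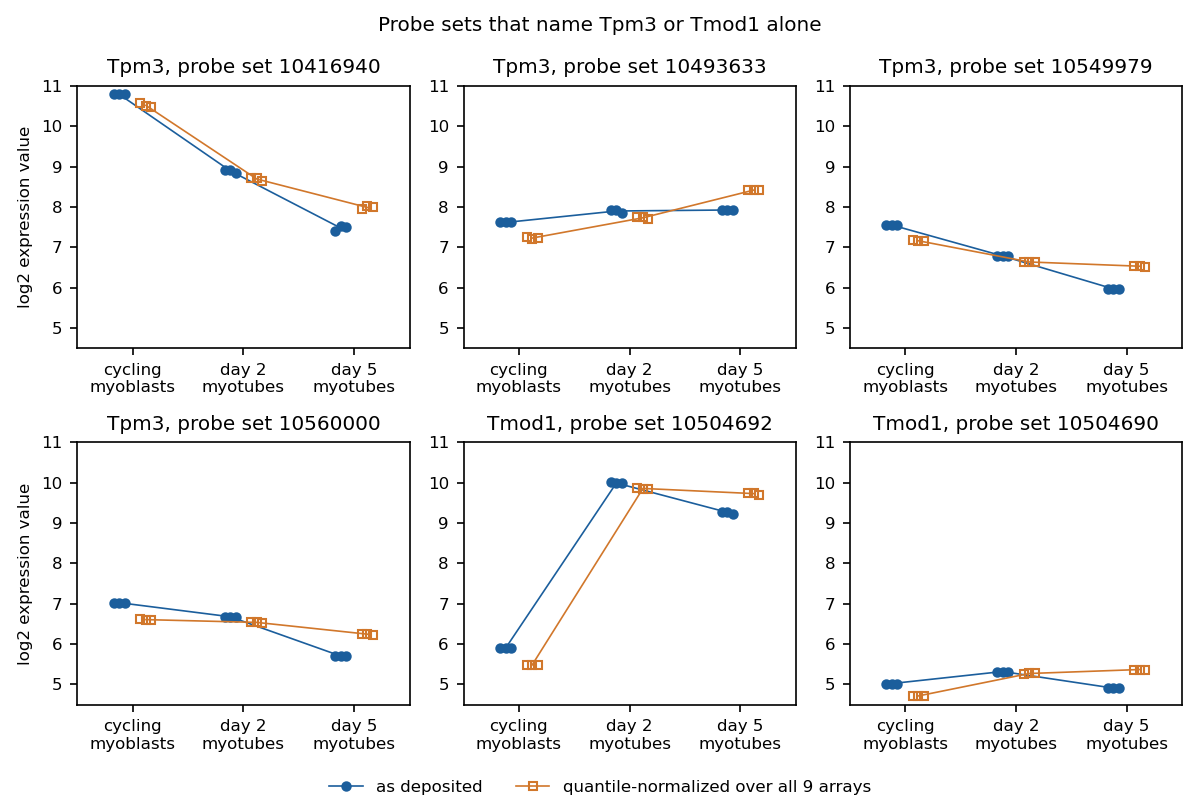
Log2 expression value (vertical axis) of the 4 probe sets naming Tpm3 alone and the 2 naming Tmod1 alone, on every array at the 3 time points, as deposited (filled circles) and on the common scale (open squares), lines through means. Tpm3 is lower at day 5 than in cycling myoblasts by 3 of its 4 probe sets and higher by 10493633, and the large rise of Tmod1 is in 10504692 and not in 10504690.

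Tmod1, the tropomodulin of striated muscle and red blood cells, had the largest rise among the 9. It had 5.89, 5.91 and 5.89 in cycling myoblasts, 10.01, 9.98 and 9.98 at day 2, and 9.28, 9.28 and 9.23 at day 5. The log2FC was 4.09 ± 0.016 and 4.37 at day 2 (limma adjusted p = 1.64e-13), 17.1-fold and 20.7-fold, and 3.37 ± 0.016 and 4.24 at day 5 (limma adjusted p = 5.18e-13). Of 16582 genes, 19 had a larger log2FC at day 2 as deposited. The other probe set naming Tmod1, 10504690, matches a single accession that the first does not list. It had 5.02 on each myoblast array, 5.32 on each of day 2 and 4.91 on each of day 5, with a log2FC of 0.30 and 0.56 at day 2, and -0.11 and 0.65 at day 5, a direction that depends on the scale.

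Tmod4, the tropomodulin found mainly in skeletal muscle, was late. It had 3.42, 3.60 and 3.60 in cycling myoblasts, 4.42, 4.26 and 4.26 at day 2, and 6.35 on all 3 arrays at day 5. The myoblast values were under the array median of 4.34 and 2 of the day 2 values were at their array median of 4.26, so its changes start from low values. On 2 myoblast arrays its value was shared by 93 and 83 other probe sets, and on 2 day 2 arrays by 254 and 247. At day 2 the log2FC was 0.78 ± 0.064 and 0.73 (limma adjusted p = 1.67e-05), short of 2-fold. At day 5 it was 2.81 ± 0.064 and 3.38 against cycling myoblasts (limma adjusted p = 6.81e-09), and 2.03 ± 0.064 and 2.66 against day 2 (limma adjusted p = 5.35e-08). The change against day 2 was the 21st highest of 16582 genes on either scale.

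Tmod3, the broadly expressed tropomodulin of non-muscle cells, fell. It had 8.93 on all 3 myoblast arrays, 6.46, 6.45 and 6.45 at day 2, and 5.17 on all 3 at day 5. The log2FC was -2.48 ± 0.0021 and -2.32 at day 2 (limma adjusted p = 1.10e-17), and -3.76 ± 0.0021 and -2.98 at day 5 (limma adjusted p = 8.19e-19). At day 5 its value was shared by 72 to 74 other probe sets of the array.

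Both leiomodins rose by day 2. Lmod3, the skeletal muscle leiomodin whose loss causes nemaline myopathy in humans, had 6.94, 7.06 and 6.94 in cycling myoblasts, 9.88, 9.88 and 9.87 at day 2, and 8.77 on all 3 arrays at day 5. The log2FC was 2.90 ± 0.033 and 3.18 at day 2 (limma adjusted p = 1.33e-10), and 1.80 ± 0.033 and 2.70 at day 5 (limma adjusted p = 2.13e-09). Lmod2, the leiomodin of heart and skeletal muscle, had 5.09 on all 3 myoblast arrays, 7.43 on all 3 at day 2, and 6.87, 6.95 and 7.06 at day 5. Its log2FC was 2.34 ± 0.043 and 2.49 at day 2 (limma adjusted p = 2.36e-09), and 1.88 ± 0.043 and 2.73 at day 5 (limma adjusted p = 7.79e-09). No myoblast array overlapped a myotube array for either gene, from which nothing is read, since the share of all genes without overlap was not counted.

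**Figure D3:**
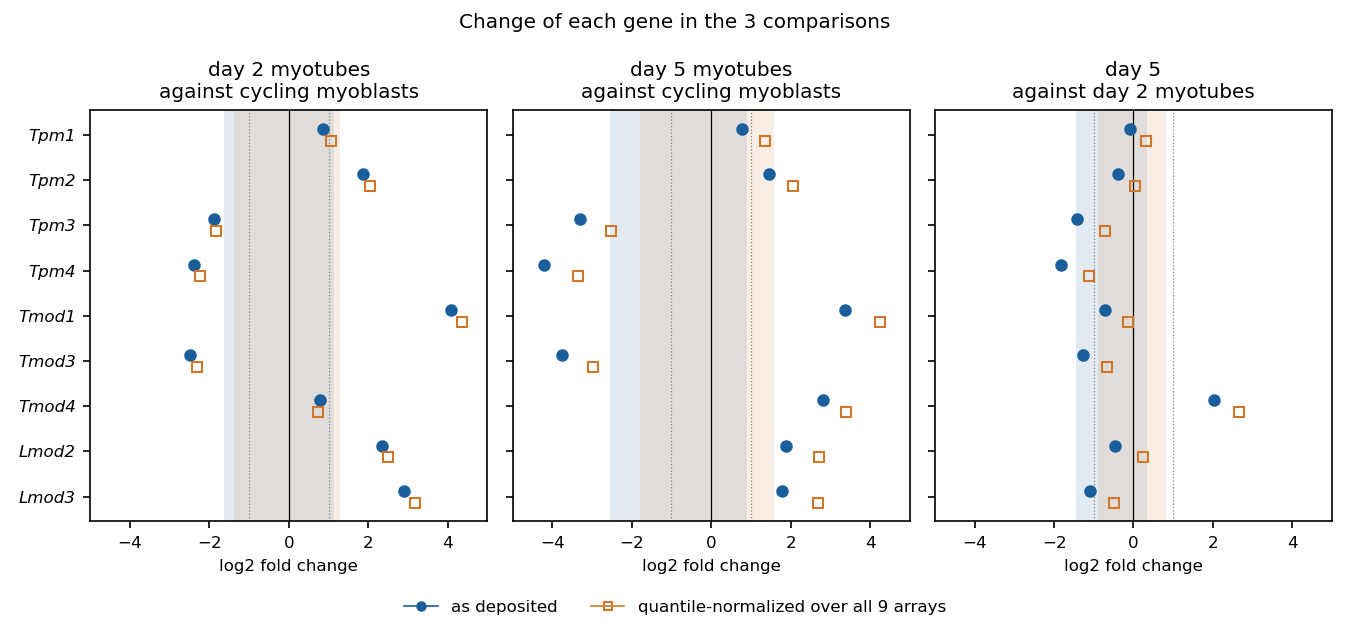
Log2 fold change (horizontal axis) of each gene in the 3 comparisons, as deposited (filled circles) and on the common scale (open squares), with dotted lines at a 2-fold change and shaded bands from the 5th to the 95th percentile of all 16582 genes on each scale. Tmod1, Lmod2, Lmod3 and Tpm2 lie beyond the upper edge and Tpm3, Tpm4 and Tmod3 beyond the lower edge of the bands in both comparisons with cycling myoblasts, Tmod4 lies beyond the upper edge at day 5, and between day 2 and day 5 only Tmod4 and Tpm4 lie beyond both bands.

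All members but Tmod4 had a smaller change between day 2 and day 5 than between cycling myoblasts and day 2, on both scales. Besides Tmod4, Tpm4 was lower at day 5 with a log2FC of -1.83 ± 0.0021 and -1.11 (limma adjusted p = 7.48e-17). Tpm3 by its highest probe set (-1.42 and -0.71), Tmod3 (-1.28 and -0.67) and Lmod3 (-1.10 and -0.48) had negative log2FC on both scales. These changes reached 2-fold as deposited alone. Tmod1 had -0.73 and -0.13. For Tpm1 (-0.09 and 0.31), Tpm2 (-0.39 and 0.04) and Lmod2 (-0.46 and 0.24) the sign differed between the scales, and none of these 3 has a settled direction after day 2. Set against the median of all genes, the change was 0.32 and 0.25 for Tpm1, 0.01 and -0.02 for Tpm2, and -0.06 and 0.18 for Lmod2, as deposited and on the common scale.

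Related genes can be set against each other through the log2 ratio of 2 members on the same array, in which a shift of the whole array cancels. Only the change of such a ratio is given, since levels of different probe sets are not comparable. Of 8 pairs, chosen with earlier results of these data known, most set a member with higher levels in myotubes against one that fell, so the direction of most ratios follows from the choice and the changes are given as a description. An exact permutation test of the F statistic over the 3 time points gave its smallest possible p with 9 arrays, 0.00357, for 7 of the 8 pairs. Nothing is read from these p-values, given that choice and the near-identical arrays of a time point. The ratio Tpm2/Tpm4 was higher by 4.25 at day 2 and by 5.69 at day 5 than in cycling myoblasts, and Tpm1/Tpm4 by 3.26 and 5.00. Tpm2/Tpm3 was higher by 3.75 and 4.78 and Tpm1/Tpm3 by 2.76 and 4.10, with Tpm3 read from its highest probe set. Read from probe set 10493633, Tpm2/Tpm3 was higher by 1.58 and 1.16 as deposited, and 1.53 and 0.88 on the common scale, and Tpm1/Tpm3 by 0.58 and 0.47, and 0.55 and 0.17. The size of both ratios thus rests on the probe set.

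Among tropomodulins Tmod1/Tmod3 was higher by 6.57 at day 2 and 7.13 at day 5 than in cycling myoblasts, and Tmod4/Tmod3 by 3.26 and 6.57. The pair Tmod4/Tmod1 set the late gene against the early one: its ratio was -3.32 at day 2 and -0.56 at day 5 relative to cycling myoblasts. The myoblast values of Tmod4 were under the array median and shared with other probe sets on 2 of the 3 arrays, so the sizes of its ratios are uncertain. Lmod3/Lmod2 changed least, by 0.55 at day 2 and -0.08 at day 5 (exact permutation p = 0.0143). On the common scale all pairs kept their direction, with Tpm2/Tpm4 at 4.28 and 5.43 and Lmod3/Lmod2 at 0.68 and -0.03.

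**Figure D4:**
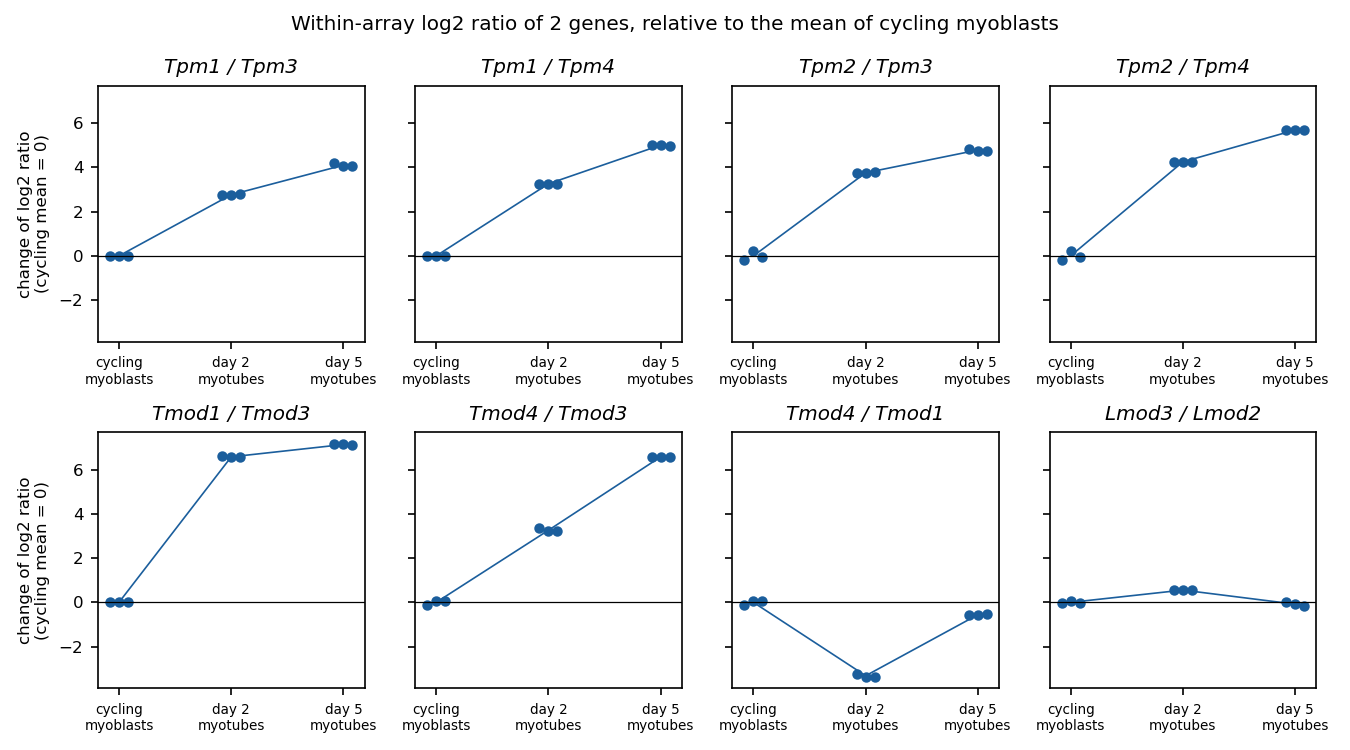
Change of the within-array log2 ratio of 2 genes (vertical axis, mean of cycling myoblasts set to 0) on each of the 9 arrays as deposited, each gene read from its highest probe set, with lines through the means of 3 arrays. The ratios of Tpm1 or Tpm2 to Tpm3 or Tpm4 and of Tmod1 or Tmod4 to Tmod3 are higher at both later times, by 2.76 to 7.13 in the means, while Tmod4/Tmod1 is lowest at day 2.

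The remaining measured genes of the tropomodulin and leiomodin family stayed short of 2-fold. The neuronal tropomodulin Tmod2 had a log2FC of -0.68 and -0.71 at day 2, and -0.67 and -0.43 at day 5, and the smooth muscle leiomodin Lmod1 had 0.50 and 0.59, and 0.20 and 0.71. Neither was called in any comparison. The gene lists that follow were chosen with earlier results of these data known. Of all genes tested, 6.04% were called higher and 8.41% lower at day 2, and 4.44% and 12.3% at day 5, against cycling myoblasts. Genes of the striated thin filament, the actins, troponins and nebulin that tropomyosin and tropomodulin bind, were higher in 9 of 10 cases at both times and lower in 0. Tnnc2 (log2FC 4.16 and 4.45), fast troponin C, Tnni2 (3.23 and 3.51), fast troponin I, Tnni1 (2.83 and 3.01), slow troponin I, and Tnnt3 (2.82 and 2.99), fast troponin T, had the largest changes at day 2, and Tnnt1, slow troponin T, was not called (0.51 and 0.66). The list's median log2FC was 2.21 and 2.41 at day 2, and 1.71 and 2.25 at day 5.

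The next list was drawn up for leiomodin and nebulin stability and thin filament assembly, but not all of its genes have these functions, Unc45b among them. Its genes were higher in 8 of 8 cases at day 2, against 6.04% of all genes. At day 5 they were higher in 6 of 8, against 4.44%. In this list Kbtbd13, a muscle relative of the Klhl genes, had 2.92 on all 3 myoblast arrays, under the filter value, and passed the filter through the myotube arrays alone. Without it the counts were 7 of 7 and 5 of 7. The median log2FC was 2.34 and 2.53 at day 2, and 1.30 and 2.18 at day 5. Klhl40, which stabilises LMOD3 and nebulin, had a log2FC of 2.41 and 2.58 at day 2, and 1.28 and 2.19 at day 5, and its relative Klhl41 had 3.03 and 3.27, and 2.84 and 3.51. Unc45b, a myosin chaperone, had 3.65 and 3.76 at day 2, and 2.43 and 3.25 at day 5. Xirp1, an actin-binding protein of striated muscle, had 2.88 and 3.08, and 1.31 and 2.24. Nrap (0.66 and 1.61) and the formin Fhod3 (0.46 and 1.29) did not reach 2-fold on both scales at day 5.

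In the list of barbed end capping and actin turnover, 2 of 15 genes were higher and 4 lower at day 2, against 6.04% and 8.41% of all genes. At day 5, 2 were higher and 5 lower, against 4.44% and 12.3% of all genes. Vil1 of this list was under the filter value in cycling myoblasts, passed the filter through the myotube arrays alone and was not called. The median log2FC was -0.37 and -0.29 at day 2, and -1.39 and -0.68 at day 5. The muscle cofilin Cfl2 (log2FC 1.65 and 1.83) and Cap2 (2.48 and 2.71), the cyclase-associated protein of striated muscle, were higher at day 2, and the broadly expressed Cfl1 (-1.87 and -1.79) and Cap1 (-1.95 and -1.81) were lower. Pfn2 (-1.80 and -1.46), a profilin, and Dstn (-1.77 and -1.65), the actin depolymerising factor destrin, were the other 2 lower at day 2. At day 5 the lowest were Dstn (-3.54 and -2.69), Cfl1 (-3.23 and -2.44), Cap1 (-3.21 and -2.35) and Wdr1 (-2.68 and -1.87), a cofactor of cofilin. The capping protein genes Capza1, Capza2 and Capzb, for the opposite filament end to that of tropomodulin, were not called at either time. Capza1 had a log2FC of -0.37 and -0.29 at day 2, and -1.61 and -0.82 at day 5, at least 2-fold lower at day 5 as deposited alone. Capza2 had 0.07 and 0.25, and -0.44 and 0.33, and Capzb had 0.44 and 0.58, and 0.08 and 0.83. Of 8 measured membrane skeleton genes, which in red blood cells and other cells meet tropomodulin-capped filaments, beta-spectrin Sptb rose at day 2 (1.28 and 1.31) and day 5 (1.31 and 1.88), and Sptan1, alpha-spectrin of non-erythroid cells, fell at day 5 (-2.23 and -1.39). The median of the 8 was 0.10 and 0.12 at day 2, and -0.49 and 0.28 at day 5, where the scales differ in sign. Of all genes 14.4% were called in either direction at day 2 and 16.7% at day 5. Nothing is therefore read from the number called among these 8 or among SRF and its cofactors. Of SRF and its cofactors, 5 genes measured, only Abra, an actin-binding activator of SRF in striated muscle, was called. Abra had 2.84 on all 3 myoblast arrays, under the filter value there, against which its log2FC was 2.69 and 2.57 at day 2 and 3.53 and 4.04 at day 5. It passed the filter through the myotube arrays alone, so the sizes are taken from a floor. The median of the 5 was -0.21 and -0.02 at day 2, and -1.13 and -0.17 at day 5. Srf itself had -0.21 and 0.01, and -1.13 and -0.17.

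**Figure D5:**
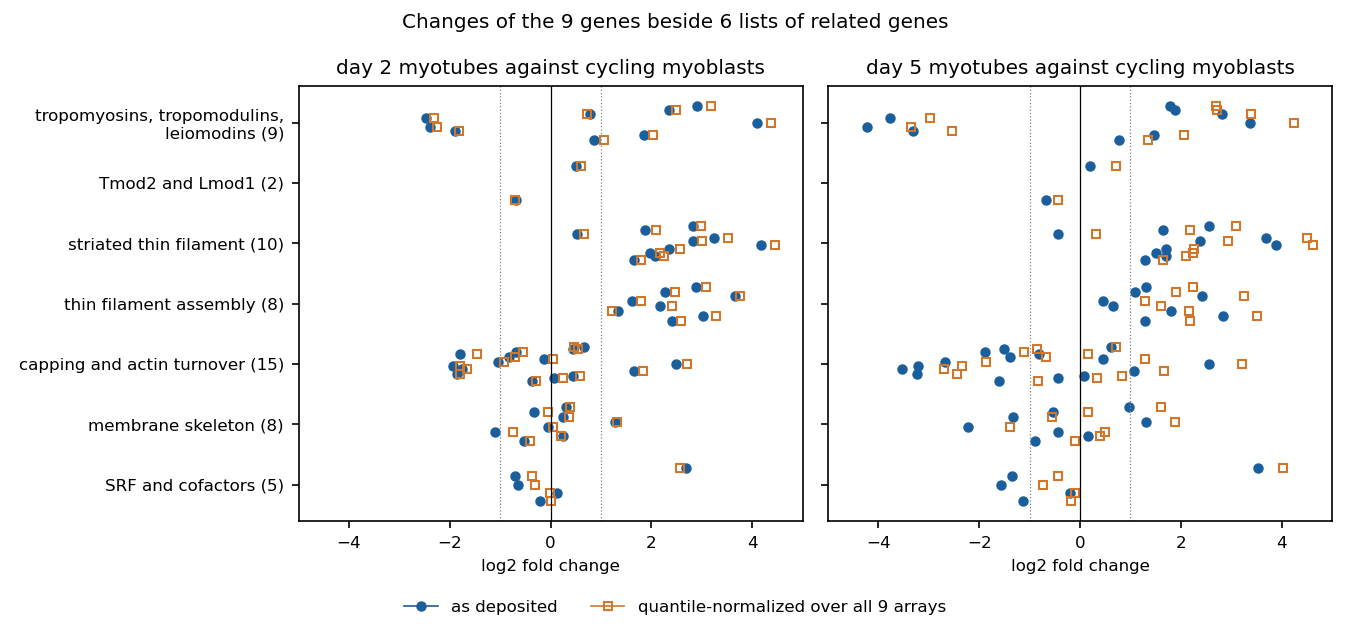
Log2 fold change (horizontal axis) of the 9 genes and of the members of 6 lists of related genes at day 2 and day 5 against cycling myoblasts, as deposited (filled circles) and on the common scale (open squares), with dotted lines at a 2-fold change. Members split to both sides, the striated thin filament and assembly lists lie mostly above 2-fold, and capping and turnover genes spread to both sides.

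The genes with the pattern most like a member were found by the distance between their log2FC at day 2 and day 5 against cycling myoblasts, over 3 time points, as deposited. Nearest to Tmod1 were Ablim3 (4.10 and 3.38), Fgf21 (4.07 and 3.26) and Popdc2 (4.03 and 3.53), of which 2 of 3 stayed among the nearest on the common scale. Nearest to Tmod4 were Gpx3 (0.82 and 2.77), Ddo and Xirp2 (0.89 and 3.10), again with 2 of 3 shared between scales. Ddo was under the filter value on all arrays of cycling myoblasts and of day 2, so its likeness to Tmod4 before day 5 is a difference between floor values. For Tpm4, with Cmtm3 (-2.29 and -4.20) nearest, 1 of 3 was shared. For the remaining 6 members 0 of 3 were shared, so no gene is named for them.

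The labels of the cells were checked against markers. All 5 myoblast markers, Myod1, Myf5, Pax7, Des and Ncam1, and all 5 myotube markers, Myog, Ckm, Acta1, Myh3 and Mymk, were above the array median at every time. The myoblast markers split. Myod1 (11.56, 10.60 and 9.52 as deposited), Myf5 (9.14, 7.59 and 6.75) and Pax7 (7.88, 5.73 and 4.97) fell at each step. Des (10.22, 11.49 and 11.35) and Ncam1 (9.78, 11.21 and 10.11) were higher at both later times than in cycling myoblasts. In cycling myoblasts the myotube markers averaged 8.89, with 11.69 and 11.05 in myotubes of day 2 and day 5, and the 3 measured proliferation markers 9.05, 3.77 and 3.41. None of the 4 endothelial markers was above the array median at any time, and at most 1 of 4 macrophage, 2 of 4 adipocyte and 1 of 2 Schwann cell markers were. Fibroblast and smooth muscle cells, which also carry cytoskeletal tropomyosins and Tmod3, were checked in more detail. The proliferation markers above were lower at both later times on both scales. Of 7 fibroblast markers 3 were above the array median in cycling myoblasts and in day 2 myotubes and 4 in day 5 myotubes, with Dcn and Lum under it at all times. The 7 averaged 4.49, 4.02 and 3.91 as deposited, and 4.324, 3.929 and 4.198 on the common scale. Col3a1 had 8.92, 6.06 and 4.77, and the other 6 averaged 3.76, 3.69 and 3.77 as deposited, and 3.61, 3.59 and 4.03 on the common scale. Of 5 smooth muscle markers 3 were above it at each time, with Myh11 under it at all times. The 5 averaged 6.35, 6.12 and 5.39 as deposited, and 6.12, 6.03 and 5.71 on the common scale. On both scales 4 of the 5 were lower at day 5 than in cycling myoblasts, among them Tagln with 6.49, 5.27 and 3.68, and Cnn1 was not (3.15, 3.80 and 4.02). The part of these cells and of proliferation in the falls of Tpm4, Tmod3 and the highest probe set of Tpm3 was not tested.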

How the data were processed

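The members, gene lists, pairs and motifs were chosen with earlier results of these data known. The deposited table holds log2 expression values of 35556 probe sets on 9 arrays, which the authors made with RMA for each replicate set, per the submitters' processing notes and the series' design text. No source used here gives its version. Array medians were 4.33 to 4.35 in cycling myoblasts, 4.26 at day 2 and 3.98 to 3.99 at day 5, closer within a time point than between time points, so processing and time point cannot be told apart. Probe sets were named through the platform annotation (21789 name 1 gene, 1621 several, 12146 none).

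For each gene the probe set with the highest mean was used, and 16582 genes above the 30th percentile of their array on at least 3 arrays were tested. limma 3.58.1 in R 4.3.3 fitted 1 mean per time point to all 9 arrays, with Benjamini-Hochberg adjustment over all genes at 0.05. The fit was repeated after quantile normalization of all 9 arrays. Errors are limma's SE of the deposited values, which are too small for the same reason as its p-values. The number of arrays limits the precision, and the table holds no measure of background. The text names all members, up to 4 called genes of each list and comparison with the largest changes, Tmod2 and Lmod1, and nearest-pattern genes. List genes named as not called (Tnnt1, Nrap, Fhod3, Srf, Capza1, Capza2, Capzb and Vil1), and Cfl2 and Kbtbd13 at day 2, were chosen after their values were seen. Figures were drawn with matplotlib 3.10.9.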

Additional observations from a re-analysis of the deposited data

How the results depend on the processing

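Member calls were recomputed 486 times over comparisons and alternatives, and 476 were the same. These include the replicate block and the fits without 1 array, which could hardly move a call, as given below. Testing without a filter or with one at the 50th percentile left every member's log2FC unchanged. So did limma's trend and robust options and fits of only the 2 groups compared. With nearly every gene passing on p alone, these settings could hardly move a call either. All changed calls came from quantile normalization alone, the deposited scale alone, median centring or the mean of all probe sets. With the mean of all probe sets Tpm3 lost its call at day 2 and day 5, which left 6 and 7 members called. Tpm1 gained a call at both times with quantile normalization alone and at day 5 with median centring, and the other changed calls, at day 5 against day 2, were gained on the deposited scale alone (Tpm3, Tmod3 and Lmod3) or with median centring (Tpm3 and Tmod3). After quantile normalization the day 5 against day 2 change of Tpm1 (0.31) and Lmod2 (0.24) reversed. That of Tpm2 (0.035) changed sign but no longer passed (limma adjusted p = 0.646). With each array centred on its median the change of Tpm1 (0.19) reversed as well, and that of Tpm2 (-0.12) no longer passed. Read from probe set 10493633, Tpm3 reversed to 0.28 at day 2 and 0.31 at day 5 against cycling myoblasts, and 0.025 at day 5 against day 2. From probe set 10504690 Tmod1 reversed to -0.11 at day 5. These probe set alternatives, and calls on the deposited scale alone, were chosen after seeing the data. With Tpm3 from probe set 10493633, 6 and 7 members were called at day 2 and day 5. With the mean of all probe sets, the log2FC as deposited was -0.68 at day 2 and -1.48 at day 5 for Tpm3, and 2.20 and 1.63 for Tmod1.

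Of all genes, 5576 were called at day 5 against cycling myoblasts on the deposited scale alone and 4749 with median centring, against 2776 on both scales, and 2675 and 1521 at day 5 against day 2, against 736. Members called at day 5 against day 2 were 5 on the deposited scale alone and 4 with median centring, against 2. Of all calls at day 5 against cycling myoblasts, 26.5% were higher on both scales, 13.2% on the deposited scale alone and 49% after quantile normalization. At day 5 against day 2 these shares were 17.3%, 4.75% and 43.1%.

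Deviations of same-numbered arrays correlated at -0.04 to 0.11 over 9 pairs of arrays, so replicate numbers were not taken as pairing. A block for the replicate number leaves every log2FC unchanged, since every time point holds the same replicate numbers. That fit called the same numbers of genes (2396, 2776 and 736) and of members (7, 8 and 2) in the 3 comparisons. With nearly every gene passing on p alone, these equal counts could hardly differ and are no support. Without 1 array at a time, 2375 to 2406, 2763 to 2785 and 729 to 753 genes were called, and again 7, 8 and 2 members. Since 47.9% to 60.2% of probe sets had the same value on all 3 arrays of a time point, leaving out an array could change little. All 164 recomputed pair changes from cycling myoblasts to day 2 or day 5 kept their direction. Most pairs were chosen to set a member higher in myotubes against one that fell, and leaving out an array could change little. These equal directions are therefore no support. The cause of the changes between scales was not tested.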
